A study of Mus musculus with 2 samples.

Results

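Natural killer (NK) cells were picked from single-cell transcriptomes of mouse liver tumours by the transcripts they carried, and 152 of the 21304 barcodes that passed the depth and quality limits met the rule, 92 in the WT library and 60 in the FABP5 hKO library. A barcode, the droplet tag that stands for 1 cell, had to hold at least 500 unique transcript molecules (UMIs) and at least 200 genes, with no more than 25% of its UMIs from mitochondrial genes. The rule asked for at least 3 UMIs summed over Ncr1, Klrb1c, Klre1, Klra8, Klra4 and Eomes, with at least 2 of these 6 genes detected. It set aside barcodes with any Cd3d, Cd3e or Cd3g (T cells), any Cd79a (B cells), any Siglech (plasmacytoid dendritic cells), more than 2 UMIs of C1qa, C1qb and C1qc (macrophages), or more than 2 UMIs of Itga1, Cd160 and Il12rb2 (liver-resident lymphocytes). These transcripts chose the cells, so their levels are given below as a description.

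The study compared liver tumours (HCC, hepatocellular carcinoma) of C57BL/6J mice with and without a hepatocyte deletion of Fabp5, which encodes a carrier of fatty acids; hepatocytes are the liver's parenchymal cells. Deletion was driven by Alb-CRE-ER, a tamoxifen-inducible Cre recombinase under the albumin promoter, so NK cells were not the targeted cell. WT and FABP5 hKO littermates aged 6 to 8 weeks both received tamoxifen, 100 mg/kg given 5 times at intervals of 3 days after 16 h of fasting, and after 2 weeks both were put on CD-HFD for 15 months. Each library came from 2 to 3 freshly isolated tumours that were pooled, digested in collagenase and run on the 10x Genomics 3′ platform. There was 1 library per genotype, so no difference between WT and hKO has a replicate check: intervals below cover counting error only, no p-value was computed, and the genotype cannot be told apart from the pool of tumours or the library.

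NK cells are lymphocytes that kill infected or transformed cells without prior sensitisation. They weigh signals from activating receptors (NKG2D, encoded by Klrk1, and NKp46, encoded by Ncr1) against inhibitory receptors for MHC class I (the Ly49 family, encoded by Klra genes in mice, and the CD94-NKG2A pair, encoded by Klrd1 and Klrc1), and they kill with perforin and granzymes. Circulating NK cells need the transcription factor Eomes, pass from a Cd27-expressing state to a mature state with Itgam, Klrg1 and S1pr5, and share the liver sinusoids with resident innate lymphocytes that express Itga1 and Cxcr6.

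The 92 WT cells held 335099 UMIs and the 60 hKO cells 200858, of 58772330 and 68010317 UMIs over all barcodes. The WT cells had a median of 3370 UMIs (589 to 18289) and the hKO cells 2990 (1205 to 8916), with 1665 and 1504 genes. Mitochondrial genes took a median of 6.35% of the UMIs in WT cells and 9.15% in hKO cells, and over all barcodes 18.5% of WT and 36.8% of hKO exceeded the mitochondrial limit. No barcode sequence was an NK cell in both libraries, although 73 barcode sequences occurred in both. Barcodes with at least 10 UMIs of another cell type's markers (50 for hepatocyte or red blood cell markers), called mixed barcodes here, numbered 10 of the 92 WT and 6 of the 60 hKO cells.

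Of the 5 NK markers given for these cells (Ncr1, Klrb1c, Eomes, Klra8 and Gzma), 4 are rule genes and only Gzma lies outside the rule, so their detection in both libraries describes the gate and does not check the label. Their summed level was 6318 CPM (counts per 1000000 UMIs) in WT NK cells and 5173 CPM in hKO NK cells, against 176 and 86.4 CPM in all other kept barcodes. Markers of other cell types bear on the label. Of the 10 T cell markers, 7 were at 0 in both libraries, Cd3d, Cd3e and Cd3g by the rule and Cd4, Cd8a, Cd8b1 and Cd6 without it. For a count of 0 the exact upper limit was 3.93% of the WT cells and 5.96% of the hKO cells with a UMI. Trac, the constant region of the T cell receptor alpha chain, gave 1 UMI in WT and 2 UMIs in hKO NK cells, where 81.8% of the WT and 67.3% of the hKO CD8 T cells held one. Trbc1, a beta chain constant region, was found in 52.2% of WT and 51.7% of hKO NK cells, and Trbc2 in 32.6% and 25%. In B cells, which should lack these transcripts and had median depths of 3402 and 2717 UMIs, Trbc1 was found in 1.16% and 0.838%, so the beta chain transcripts in NK cells lay above the level of free RNA. Cd28, another T cell marker on the list, was found in 29.3% of WT and 15% of hKO NK cells, against 1.77% and 0.372% of B cells. Of the 8 markers of other innate lymphoid cells, 6 were detected in WT and 5 in hKO, and Il1rl1 and Il22 were at 0 in both libraries. The summed level was 755 CPM in WT and 428 CPM in hKO NK cells, against 93.7 and 57.6 CPM in B cells.

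Promoter sequences of NK genes are shown because these genes were high together in the same cells, and a motif can be read against all promoters. The 6 rule genes and the 10 genes highest in NK cells over all other kept barcodes were matched to RefSeq, and all 16 had a window of the 250 bases before a transcript start in build GRCm38.p6. TGTGGT, the core letters bound by RUNX factors (ACCACA on the other strand), stood in at least 1 window of 8 of the 16 genes, or 50%, against 15.9% of 27025 genes and 14.0% of their 32851 windows. GGTGTGA, core letters of T-box factors such as Eomes and Tbx21, stood in 1 of the 16 genes (Samd3) against 3.84% of all genes, and CGGAAG, core letters of ETS factors, in 1 (Adamts14) against 15.3%. Both strands were searched. TGTGGT and GGTGTGA can share letters in a sequence, but no gene held both. The genes were chosen by their level, several are neighbours of 1 gene cluster on chromosome 6 with related sequences, and a match describes letters, not a bound site. The windows of Ncr1 (chr7:4337465-4337714, + strand), Prf1 (chr10:61297586-61297835, + strand) and Gzma (chr13:113100982-113101231, - strand) follow 5′ to 3′ on the gene's strand, with the RUNX letters in capitals.
Ncr1: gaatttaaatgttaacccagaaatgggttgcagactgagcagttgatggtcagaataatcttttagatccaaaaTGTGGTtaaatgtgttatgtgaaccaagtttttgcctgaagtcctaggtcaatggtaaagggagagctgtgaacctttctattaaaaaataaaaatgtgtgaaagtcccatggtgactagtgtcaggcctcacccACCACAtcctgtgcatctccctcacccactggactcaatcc
Prf1: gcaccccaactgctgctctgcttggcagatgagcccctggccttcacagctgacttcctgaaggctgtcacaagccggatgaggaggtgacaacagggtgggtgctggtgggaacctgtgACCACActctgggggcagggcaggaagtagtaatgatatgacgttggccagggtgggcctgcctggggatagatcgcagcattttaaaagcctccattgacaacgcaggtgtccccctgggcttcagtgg
Gzma: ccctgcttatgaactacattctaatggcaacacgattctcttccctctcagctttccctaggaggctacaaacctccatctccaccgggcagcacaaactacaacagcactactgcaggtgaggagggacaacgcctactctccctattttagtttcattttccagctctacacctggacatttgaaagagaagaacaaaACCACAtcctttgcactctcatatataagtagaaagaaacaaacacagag
The Ncr1 window held 2 matches, and the Prf1 and Gzma windows 1 match each.

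Among the rule genes, Ncr1 was found in 85 of 92 WT cells (0 to 11 UMIs, median 3) and in 48 of 60 hKO cells (0 to 10, median 2). Klre1, a lectin-like receptor of NK cells, was found in 81 WT cells (0 to 13 UMIs, median 2) and 55 hKO cells (0 to 7, median 2). Klra4 (Ly49D, an activating Ly49 receptor) ranged from 0 to 27 UMIs in WT cells and from 0 to 13 in hKO cells, with medians of 2 and 3. Klrb1c (NK1.1) was found in 57 WT and 34 hKO cells, and Eomes in 24 and 24. The sum over the 6 genes ran from 3 to 41 UMIs in WT (median 12) and from 3 to 26 in hKO (median 10), so the WT range spanned the whole hKO range. At the threshold of 3 UMIs there were 3 cells in each library, and 53 WT and 33 hKO cells had 10 or more.

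Of the effector genes that the rule did not use, Gzma, Prf1 and Ccl5 were found in most of the cells. Fewer cells held Gzmb (40 WT and 26 hKO cells), Ccl4 (37 and 17), Ccl3 (30 and 14), Xcl1 (27 and 25) and Ifng (15 and 13). Gzma, a granzyme, was found in 62 WT cells (0 to 96 UMIs, median 13.5) and 43 hKO cells (0 to 47, median 8). Prf1, the pore-forming perforin, was found in 56 WT cells (0 to 20 UMIs, median 1) and 36 hKO cells (0 to 8, median 1). Ccl5, a chemokine of cytotoxic lymphocytes, was found in 85 WT cells (0 to 81 UMIs, median 16) and 56 hKO cells (0 to 85, median 18.5). The cells differed widely within each library: a lower quartile of 0 for Gzma stood beside an upper quartile of 95 UMIs per 10000 in WT and 71.1 in hKO.

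**Figure D1:**
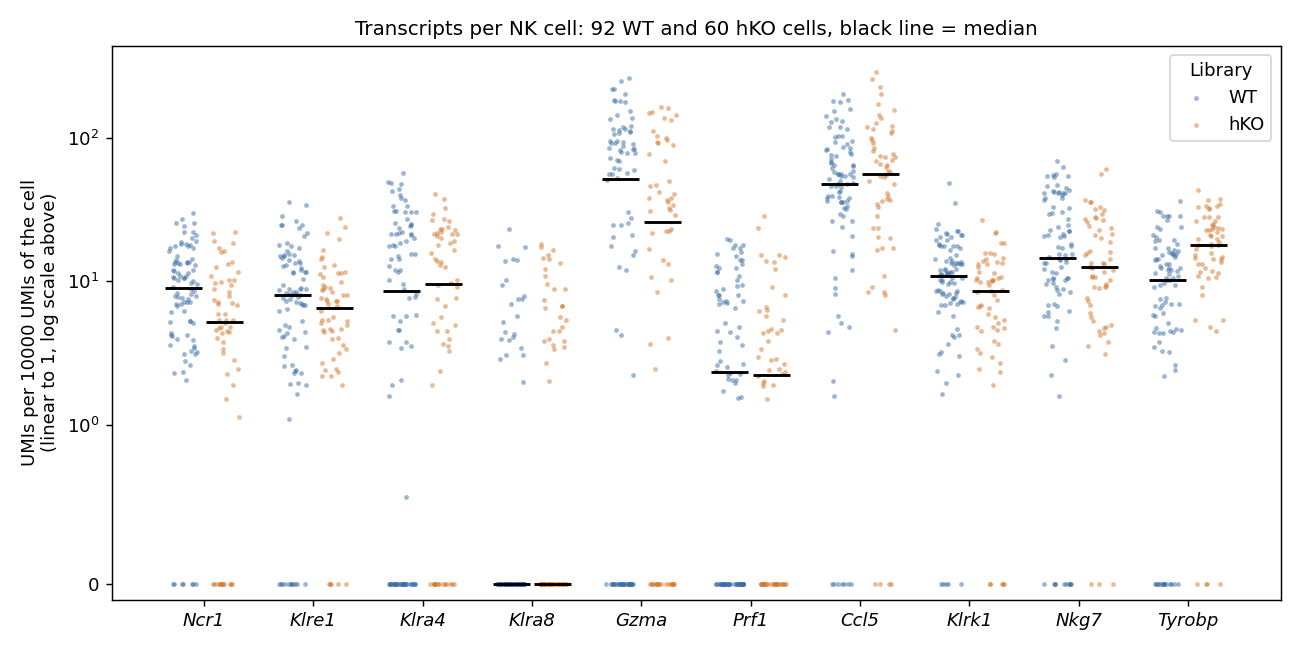
UMIs per 10000 UMIs of each NK cell (linear up to 1, log scale above) for 4 rule genes and 6 other genes, 1 point per cell, 92 WT and 60 hKO, black line at the median. For each gene the points of the libraries overlap, and the Tyrobp median lies at 10.2 in WT and 18.1 in hKO.

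Cells just inside the threshold carried less of the effector transcripts. With a sum of 3 to 5 UMIs, 14 WT cells held Gzma at 1452 CPM and Prf1 at 35.4 CPM, and 78 WT cells with 6 or more held 5448 and 517 CPM. In hKO the 11 cells at 3 to 5 UMIs held Gzma at 2588 CPM and the other 49 at 3834 CPM. Just outside, 2 WT and 7 hKO barcodes had 2 UMIs in 2 genes, with Gzma at 6863 and 458 CPM, and 10 WT and 4 hKO barcodes had 3 or more UMIs of a single rule gene, with Gzma at 29.6 and 0 CPM.

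For each comparison of populations, a gene was compared where it reached 50 CPM in either of them, and counted as higher or lower where its log2 ratio was 1 or more in that direction in both libraries, with intervals that did not include 0. Against all other kept barcodes, 323 of 3910 genes (8.26%) were higher and 452 (11.6%) lower in NK cells in both libraries. The 10 genes outside the rule that were highest by ratio were Klra7, Adamts14, Gzma, Klrb1a, Klra1, Prf1, Itga2, Klrk1, Il18rap and Samd3. Klra7 (Ly49G) stood at 510 CPM in WT NK cells and 13.2 CPM elsewhere, a log2 ratio of 5.27, and at 543 and 6.20 CPM in hKO, a log2 ratio of 6.45. Itga2, the integrin CD49b used to identify circulating NK cells, had log2 ratios of 4.48 and 5.18. Il18rap, a subunit of the interleukin 18 receptor, had 4.22 and 4.21, and Samd3 3.96 and 4.12. The cells were chosen by transcripts that go with these genes, so the ratios describe the gate.

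The first comparison asked how many NK cells each tumour library held. NK cells made up 0.934% of kept WT barcodes (92 of 9853, exact 95% interval 0.753% to 1.14%) and 0.524% of kept hKO barcodes (60 of 11451, 0.400% to 0.674%), a log2 ratio of -0.83 (-1.33 to -0.35). Of barcodes with a UMI of Ptprc, the pan-leukocyte gene CD45, they made up 1.31% and 0.688% (log2 -0.93), and of the lymphocyte gates 2.55% and 1.55% (log2 -0.72). The share was lower in hKO by each denominator. Resident lymphocytes, gated by the same NK genes but with at least 3 UMIs of Itga1, Cd160 and Il12rb2, made up 0.893% (88 cells) and 0.358% (41 cells), a log2 ratio of -1.32. Of the NK and resident cells together, NK cells were 51.1% in WT and 59.4% in hKO. CD8 T cells, given for comparison, made up 4.29% of kept WT and 2.40% of kept hKO barcodes. With a mitochondrial limit of 10% in place of 25% the NK log2 ratio was -0.77 (76 and 38 cells), and with a limit of 50% it was -1.12 (93 and 63 cells).

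**Figure D2:**
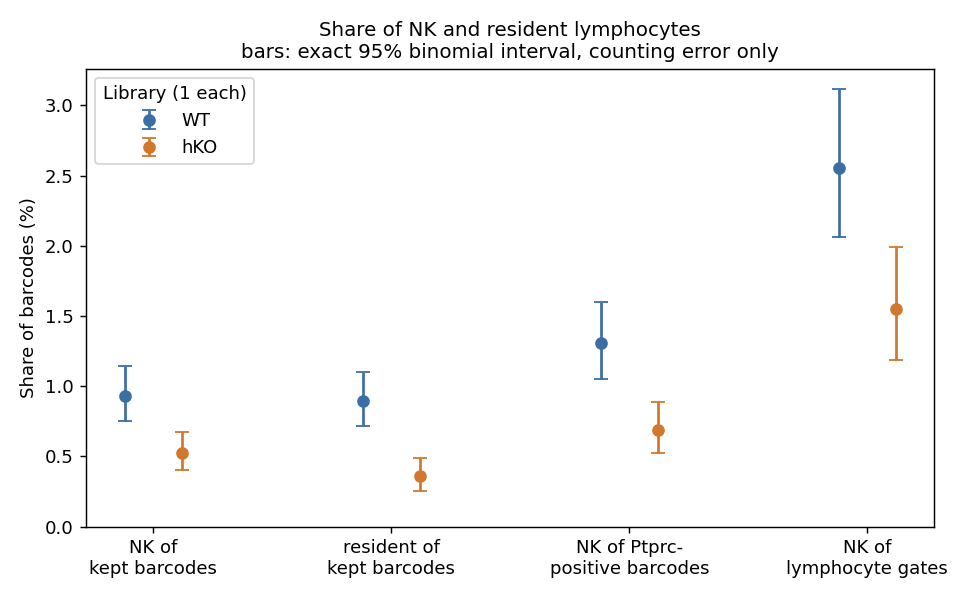
Share of barcodes (%) gated as NK cells or resident lymphocytes in the WT and hKO library, 1 library each, with exact 95% binomial intervals for counting error. The hKO point lies below the WT point for each of the 4 shares, with NK cells at 0.934% of kept WT and 0.524% of kept hKO barcodes.

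NK cells were next set against CD8 T cells of the same libraries (423 WT and 275 hKO cells gated by CD3 and CD8 transcripts), the other cytotoxic lymphocytes of the tumours. The same rule for higher and lower was used. NK cells were higher for 145 of 3614 genes (4.01%) and lower for 99 (2.74%). In WT alone 6.71% were higher and 8.57% lower, and in hKO alone 10.0% and 6.77%. Since CD3 was excluded from one gate and required in the other, T cell genes differ by choice of the cells, and the counts describe the gates.

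The genes highest over CD8 T cells were mostly receptors of the NK gene complex. Klrb1a was at 251 CPM in WT NK cells (84 UMIs) and 239 CPM in hKO (48 UMIs), and gave 1 UMI in the CD8 T cells of each library. Klra9 had log2 ratios of 8.92 and 6.96, and Klra7 6.41 and 6.35. Klra3, Eya1, Klrb1f, Klrc3, Adamts14, Angpt1 and Clnk completed the first 10, and where the CD8 T cells held no UMI the ratio is a bound: Klra3 was at least 6.10 higher on the log2 scale in WT. Clnk, an adapter of immunoreceptor signalling, was at 576 CPM in WT and 473 CPM in hKO NK cells. All 10 of these genes were also counted as higher without mixed barcodes.

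By role, 5 of 17 compared cytotoxic genes were higher in NK cells and 1 lower, read against 4.01% and 2.74% of all compared genes. Gzma had log2 ratios of 2.80 in WT and 4.16 in hKO, and Prf1 of 2.44 and 2.40. Gzmb was at 304 and 299 CPM in NK cells and 403 and 233 CPM in CD8 T cells, and Nkg7, a granule protein, at 1838 and 1533 CPM against 1768 and 1691 CPM in CD8 T cells. Gzmk, a granzyme of memory-like CD8 T cells, gave 0 UMIs in both NK groups. Among activating receptors 5 of 12 were higher and 1 lower, among Ly49 receptors 5 of 5 were higher, and among transcription factors 5 of 18 were higher, with Tbx21 (T-bet) at 421 and 433 CPM in NK cells and 144 and 92.3 CPM in CD8 T cells. Adapters of activating receptors included Tyrobp (DAP12) at 999.7 and 1991 CPM in NK cells against 126 and 253 CPM, within a list where 5 of 16 were higher and 1 lower.

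The checkpoint list split, with 3 of 8 compared genes higher and 4 lower in NK cells. Klrc1 (NKG2A), Klrd1 (CD94) and Klrg1 were higher. Klrd1 was at 955 CPM in WT and 662 CPM in hKO NK cells and at 277 and 204 CPM in CD8 T cells. Tigit, Pdcd1 (PD-1), Havcr2 (TIM-3) and Ctla4 were lower. Pdcd1 gave 3 UMIs in WT, all in 1 cell, and 0 in hKO NK cells, and stood at 65.7 and 87.9 CPM in CD8 T cells. Ctla4 gave 10 and 1 UMIs in NK cells.

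The genes lowest against CD8 T cells were Themis, BE692007, Fam169b, Gzmk, Bcl11b, Il6st, Adam23, Fbxl7, Cd6 and Ly6a. Themis, a T cell signalling protein, gave 0 UMIs in WT and 1 UMI in hKO NK cells, against 3270 and 1588 in CD8 T cells. Bcl11b, a T lineage factor, gave 14 UMIs in 8 WT cells and 4 UMIs in 4 hKO cells. Adam23 and Fbxl7 were not counted as lower without mixed barcodes. Endothelial markers reached 10 UMIs in 43 WT and 6 hKO CD8 T barcodes and in no NK barcode, and their part in the Adam23 and Fbxl7 ratios was not tested.

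**Figure D3:**
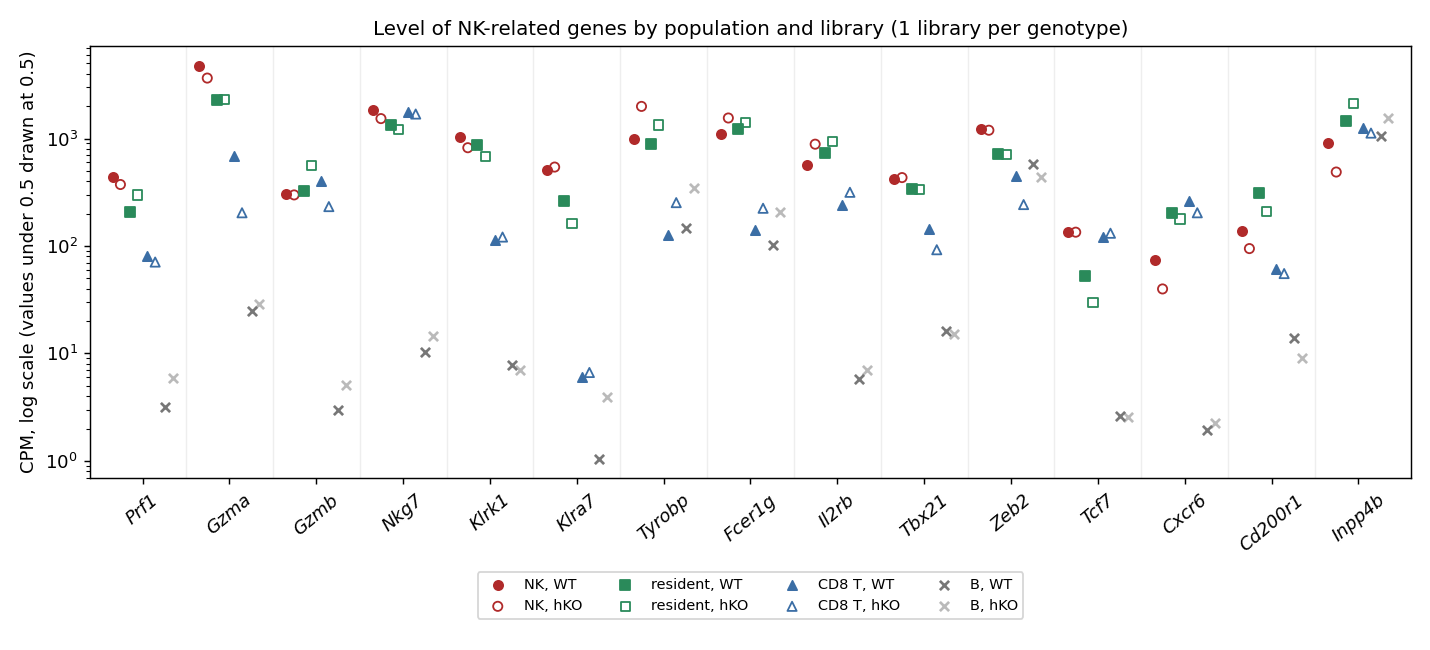
Level in CPM (log scale) of 15 genes in NK cells, resident lymphocytes, CD8 T cells and B cells, in the WT and hKO library, 1 library each. Prf1, Gzma, Klrk1 and Klra7 stand highest in NK cells in both libraries, while Cxcr6 and Cd200r1 stand higher in resident lymphocytes.

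The closest population was the resident lymphocytes, from which NK cells were separated only by Itga1, Cd160 and Il12rb2. Of 3591 compared genes, 15 (0.418%) were higher and 26 (0.724%) lower in NK cells in both libraries. In WT alone 2.98% were higher and 7.1% lower, and in hKO alone 3.76% and 4.18%. Of the 10 genes lowest by ratio only Klri1 was still counted without mixed barcodes, and Ptprb, Meis2, Nrp1, Fcgr2b, Ehd3, Il6st, Lgmn, Lrrc58 and Snrk were not, and endothelial markers, at 1098 CPM in WT and 310 CPM in hKO resident cells, were at 119 and 153 CPM with those barcodes left out. Their part in the remaining differences was not tested. Chil3, the first of the genes higher in NK cells, had its 54 WT UMIs in 1 barcode and gave 0 UMIs without mixed barcodes.

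Without mixed barcodes a small set separated NK cells from resident lymphocytes. Higher in NK cells were Tcf7 (TCF-1, a factor of early and memory-like lymphocytes) at 152 against 27.5 CPM in WT and 144 against 32.2 CPM in hKO, and Prdm1 (Blimp-1) at 70.9 against 9.15 CPM and 83.7 against 8.06 CPM. Aff3, Gprin3 and Cmah were higher in the same way, with Aff3 at log2 1.93 and 1.77. Lower in NK cells were Cxcr6, a chemokine receptor of resident cells, at 85.0 against 250 CPM and 47.8 against 209 CPM, and Cd200r1 at 156 against 400 CPM and 114 against 250 CPM. Il21r, Klri1 and Adam19 were lower as well, with Klri1, a receptor of the same gene complex as Klre1, at log2 -2.29 and -3.52. Adam19 was named after its values were seen. In all, 12 genes (7 of them among the 15) were higher and 17 (8 of them among the 26) lower without mixed barcodes.

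None of 16 compared cytotoxic genes was counted in either direction against resident cells in both libraries. Gzma stood at 4775 CPM in WT NK cells and 2285 CPM in WT resident cells, and at 3654 and 2317 CPM in hKO. Of 18 transcription factors 2 were higher in NK cells (Prdm1 and Tcf7), and of 10 compared genes on the resident list 2 were lower (Cxcr6 and Cd200r1). Eomes, a rule gene, was at 119 and 189 CPM in NK cells and 52.8 and 35.7 CPM in resident cells.

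NK cells were not uniform, and Il7r, the interleukin 7 receptor of naive T cells and innate lymphoid cells, marked out 22 of the 92 WT cells and 6 of the 60 hKO cells. The split was chosen after the values were seen and is a description. In WT, cells with an Il7r UMI held more Cxcr6 (23 UMIs against 2 in the other 70 cells, log2 4.75), Ikzf2 (79 against 20, log2 3.21), Ltb (93 against 26, log2 3.07), Cd200r1 (35 against 11, log2 2.90), Rora (32 against 11, log2 2.77) and Inpp4b (log2 2.12). They held less Gzma (87 UMIs against 1513, log2 -2.89), Klra4 (log2 -2.88), Itgam (log2 -3.17), Eomes (log2 -2.40), Prf1 (log2 -2.25) and Zeb2, a factor of terminal NK maturation (log2 -1.64). The WT cells with Il7r were also deeper, with a median of 4427 UMIs against 2844.

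The 6 hKO cells with Il7r showed part of this. Gzma was lower in them (18 UMIs against 716, log2 -2.37), and so were Klra4 (log2 -1.49) and Zeb2 (log2 -1.58). Inpp4b was higher in them (log2 0.89, 0.08 to 1.63). Higher in WT and hKO cells with Il7r were also Cd226 (log2 1.46 and 1.03), Emb (0.96 and 1.13) and Tmem176a (2.59 and 1.51). Some other genes did not follow the WT pattern. Ltb gave 1 UMI in them and 20 UMIs in the other 54 cells, a log2 ratio of -1.38 (upper limit 1.27) against 3.07 (lower limit 2.43) in WT. Ikzf2 gave 3 and 44 UMIs, log2 -0.93 (upper limit 0.71) against 3.21 (lower limit 2.49) in WT. Eomes gave 8 and 30 UMIs, log2 1.04 (-0.30 to 2.20) against -2.40 in WT. Cxcr6 (1 and 7 UMIs), Rora (2 and 21) and Cd200r1 (2 and 17) had intervals that included 0. The difference between the libraries was not tested. T cell receptor constant region transcripts (Trac, Trbc1, Trbc2 or Trdc) were present in 18 of the 22 WT cells and 4 of the 6 hKO cells with Il7r, and in 65 of all 92 WT and 41 of all 60 hKO NK cells.

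**Figure D4:**
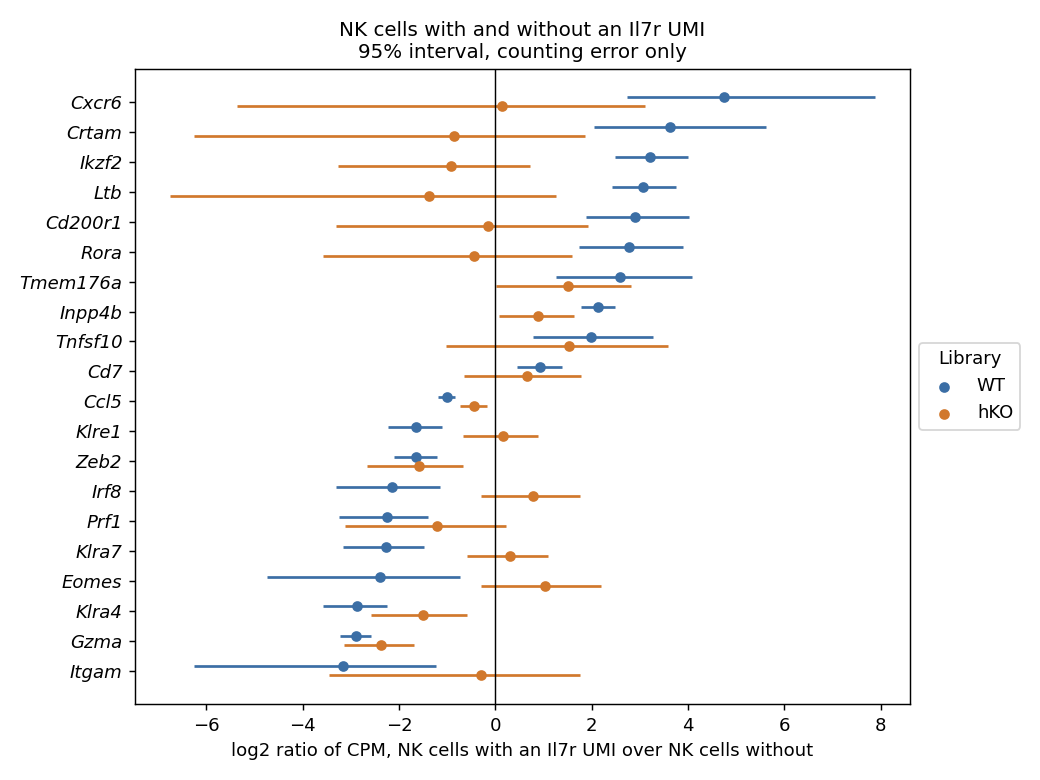
log2 ratio of CPM in NK cells with an Il7r UMI (22 WT, 6 hKO) over NK cells without one (70 WT, 54 hKO) for 20 genes, with 95% intervals for counting error. In WT, Cxcr6 to Cd7 lie to the right of 0 and Ccl5 to Itgam to the left, while most hKO intervals are wide and cross 0.

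Maturation was read with each cell thinned to 1000 UMIs, which kept 89 WT and 60 hKO cells. Cells with Cd27 and none of Itgam, Klrg1, Cx3cr1 and S1pr5 were 11 of 89 in WT (12.4%, 6.33% to 21.0%) and 0 of 60 in hKO, for which the exact upper limit was 5.96% of cells with such transcripts at this depth. Thinned to 2000 UMIs they were 16.5% and 5.66% (3 of 53). Cells with at least 1 of these mature genes and no Cd27 were 21 of 89 (23.6%, 15.2% to 33.8%) and 14 of 60 (23.3%, 13.4% to 36.0%). Most cells, 54 in WT and 46 in hKO, held none of the genes at this depth. Without thinning the Cd27 cells were 23 (25%) and 6 (10.0%), and the mature cells 37 (40.2%) and 25 (41.7%).

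Among the unthinned cells, several genes outside this split differed along it in both libraries, and other genes of the mature list did not. The mature cells exceeded the Cd27 cells for Gzma, by log2 1.89 in WT and 1.86 in hKO, and for Ccl5, by 1.18 and 1.20. Zeb2 was higher by 2.01 and 1.11 and Irf8 by 1.45 and 2.46. Ly6c2, a surface protein of mature NK cells, was at 174 CPM in the WT Cd27 cells and 693 CPM in the mature ones, and in hKO it gave 0 and 62 UMIs, at least 2.74 higher on the log2 scale. Of the mature list, Prf1 (log2 1.71), Emp3 (1.30), Rap1b (1.02) and Spn (2.15) were also higher in WT mature cells. In hKO their intervals included 0, with log2 0.67, 0.45, -0.04 and -1.04. Gzmb, Prdm1 and Itgb7 had intervals that included 0 in both libraries. Ctla2a was lower in mature cells by log2 -1.78 and -2.48. Cd7 was lower in WT mature cells (log2 -1.57), with -0.19 in hKO (-1.50 to 1.31). Ltb was lower in WT mature cells (log2 -2.71), and in hKO it gave 5 UMIs in each group, with an interval that included 0 (-3.75 to 0.49). Xcl1, a chemokine for cross-presenting dendritic cells, was lower in WT mature cells (log2 -2.32). In hKO, 33 of the 44 Xcl1 UMIs of the mature cells lay in 1 barcode, so no direction is read there. The WT Cd27 cells also held more Il7r (65 UMIs against 21 in the mature cells) and Cxcr6 (12 against 0). In hKO, Il7r gave 0 against 1 UMI and Cxcr6 1 against 0. The part of cells with Il7r or Cxcr6 in the differences along this split was not tested.

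Ly49 receptors are switched on in a variegated way, so that each NK cell carries its own subset. With cells thinned to 1000 UMIs, 76.4% of WT cells (66.2% to 84.8%) and 85.0% of hKO cells (73.4% to 92.9%) held a transcript of at least 1 Klra gene, with a mean of 1.76 and 1.90 different Klra genes per cell, and the intervals overlapped. Without thinning the shares were 83.7% and 93.3% and the means 2.77 and 3.35, with up to 7 genes in a cell. Klra8 and Klra4 helped choose the cells. With a gate on the other 4 rule genes the thinned shares were 78.8% of 85 WT cells and 74.5% of 51 hKO cells, so the order of the libraries turned at that depth. Thinned to 2000 UMIs the same gate gave 77.9% and 91.3%, and without thinning 82.6% and 92.2%. Near-identical Klra genes can share reads, and the split between them is uncertain.

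The members of the family stood at like levels in the libraries, apart from Klra8. Klra7 gave 171 UMIs in 36 WT cells and 109 UMIs in 32 hKO cells (510 and 543 CPM, log2 ratio hKO over WT 0.09). Klra1 (Ly49A) gave 120 and 67 UMIs (log2 -0.10), Klra9 75 and 37 (log2 -0.28) and Klra3 32 and 16 (log2 -0.26). Klra8, which encodes Ly49H, the activating receptor for a cytomegalovirus protein carried by C57BL/6J, gave 60 UMIs in 24 of 92 WT cells and 85 UMIs in 29 of 60 hKO cells, at 179 and 423 CPM. Its log2 ratio was 1.24 (0.75 to 1.74), and it ran from 0.84 to 1.95 over the alternatives tried. As a rule gene it is given as a description. In resident lymphocytes Klra8 gave 30 UMIs in WT and 22 in hKO (log2 1.05).

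The genotype comparison asked which NK transcripts differed between hKO and WT tumours. Fabp5 gave 2 UMIs in WT and 0 in hKO NK cells, against 15.6 and 15.8 CPM in all other kept barcodes, so the depth does not allow a comparison in NK cells, and NK cells are not where the gene was deleted. Of 4210 compared genes, 242 (5.75%) were higher in hKO and 260 (6.18%) lower by the size and interval rule, or 11.9% in either direction, with a median log2 ratio of -0.14. The intervals behind those counts cover counting error within 1 library each, not variation between cells, tumour pools or libraries. A count for a group of genes is read against those counts.

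The genes highest by ratio were transcripts of other cells. Mup20, a major urinary protein of hepatocytes, gave 5 UMIs in WT and 221 in hKO NK cells (log2 6.20), and Cyp2a5, a hepatocyte cytochrome P450, 1 and 58 UMIs (log2 6.60). Itih4, C3, Apom, Ugt2b5, Fn1, Cyp2d10, Asgr1 and Serpina3k followed. Mup20 had log2 ratios of 5.02 in B cells and 5.12 in CD8 T cells, and Cyp2a5 of 8.21 and 6.77. The 12 hepatocyte markers together stood at 2441 CPM in WT and 9001 CPM in hKO NK cells, and at 2484 and 11532 CPM in B cells of the same libraries.

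The genes lowest by ratio rested in part on few barcodes. S100a8, S100a9, Ngp, Camp and Ltf, granule genes of neutrophils, gave 366, 313, 277, 219 and 69 UMIs in WT and 0 in hKO, with at least 99.5% of each in 1 WT barcode, which held 685 of the 693 neutrophil marker UMIs of the WT cells. Cxcl9 (97.0%), Cadm1 (90.5%) and Rad51b (68.2%) also had most of their UMIs in 1 barcode. Tuba1b, a tubulin, gave 38 UMIs in 22 WT cells and 1 UMI in hKO (log2 -4.51), and Tuba1c 26 and 1 (log2 -3.96, not counted without mixed barcodes). Without mixed barcodes 202 genes were higher and 221 lower of 4154, of which 169 and 161 were counted the same way with all cells.

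The 320 genes on 21 lists were then read by role. None of 16 compared cytotoxic genes was counted in either direction (median log2 -0.24, against -0.14 over all compared genes). Gzma was at 4775 CPM (4544 to 5015) in WT and 3654 CPM (3395 to 3929) in hKO, a log2 ratio of -0.39 (-0.51 to -0.26). Prf1 was at 436 and 373 CPM (log2 -0.22, -0.64 to 0.19), Gzmb at 304 and 299 CPM (log2 -0.03) and Nkg7 at 1838 and 1533 CPM (log2 -0.26). For these 4 genes the counting intervals lay within a log2 unit of 0.

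Among 8 compared cytokines and chemokines, 1 was higher and 2 lower. Ccl5 was at 5383 CPM in WT and 6592 CPM in hKO (log2 0.29), Xcl1 at 266 and 398 CPM (log2 0.58) and Ccl3 at 251 and 224 CPM (log2 -0.16). For Xcl1, 33 of the hKO UMIs lay in 1 barcode, so no direction is read. Ccl4, a macrophage-attracting chemokine, was lower: 195 UMIs in 37 WT cells and 47 UMIs in 17 hKO cells, a log2 ratio of -1.31 (-1.81 to -0.85). The same ratio was -0.33 in resident cells and -0.03 in CD8 T cells. Ltb (lymphotoxin beta) was lower, with 119 UMIs in 32 WT cells and 21 UMIs in 16 hKO cells (log2 -1.76). Cxcl10 was counted as higher, with 98.3% of its hKO UMIs in 1 barcode, and was not without mixed barcodes (log2 0.34).

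Of 11 compared activating receptors outside the rule, none was higher and 2 were lower. Cd7 was at 486 CPM in WT and 234 CPM in hKO (log2 -1.06, -1.56 to -0.58). Slamf7, a receptor of the SLAM family that triggers NK cytotoxicity, gave 71 UMIs in 38 WT cells and 16 UMIs in 13 hKO cells (log2 -1.41, -2.29 to -0.61). It was counted as lower in each of 14 alternatives (log2 -2.25 to -1.05), and its ratio was -0.55 in resident cells, -0.61 in CD8 T cells and -0.66 in B cells. Klrk1 was at 1038 and 822 CPM (log2 -0.34) and Cd226 (DNAM-1) at 674 and 428 CPM (log2 -0.66). Of 4 compared inhibitory receptors none was counted, with Klrd1 at log2 -0.53 and Klrc1 at -0.11.

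Signal adapters and cytokine receptors went both ways. Of 15 compared adapters and kinases 1 was higher: Hcst (DAP10, the partner of NKG2D), with 62 UMIs in 42 WT cells and 75 UMIs in 38 hKO cells, log2 1.01 (0.51 to 1.52). Its ratio was 1.17 in resident cells, 1.08 in CD8 T cells and 1.06 in B cells, so it stood at a like size in all 4 populations, and it was counted in 10 of 14 alternatives. Tyrobp (log2 0.99) stood at the edge of the rule, with 0.60 in resident cells, 1.00 in CD8 T cells and 1.24 in B cells, and Fcer1g had log2 0.49. Of 14 cytokine receptors and STATs 2 were lower, Il7r and Ifnar1, a subunit of the type I interferon receptor (25 and 3 UMIs, log2 -2.32). Ifnar1 was counted in 10 of 14 alternatives and came to -0.57 without the T cell receptor barcodes and -0.89 with the B cell level subtracted. Il2rb, the shared receptor subunit for interleukins 2 and 15 on which NK survival depends, was at 567 and 886 CPM (log2 0.64, 0.34 to 0.95).

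**Figure D5:**
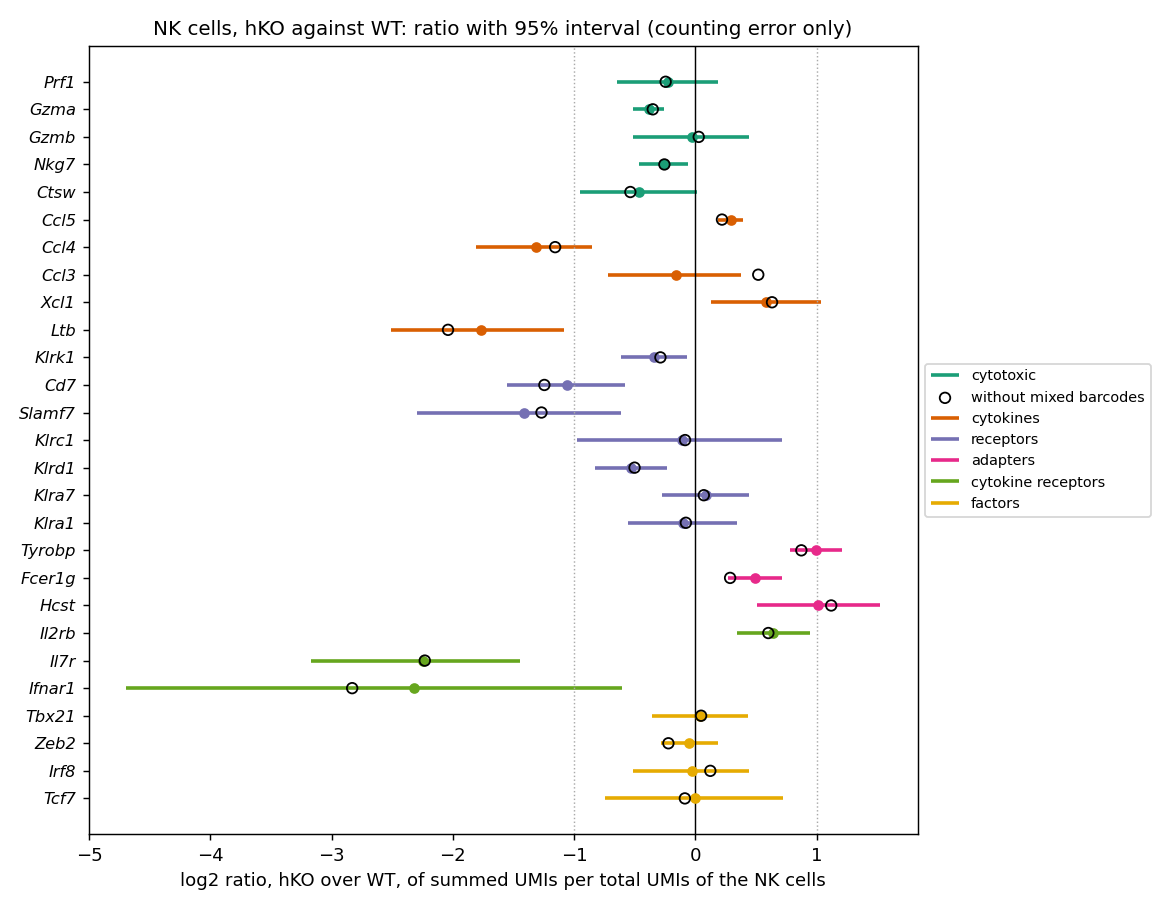
log2 ratio of hKO over WT for NK genes by role, with 95% intervals for counting error and 1 library per genotype; open circles leave out mixed barcodes, and dotted lines mark a log2 of -1 and 1. Cytotoxic genes and transcription factors lie between the dotted lines, and Ltb, Il7r, Slamf7 and Ifnar1 lie left of -1.

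Of 11 compared immature NK genes 4 were lower in hKO and none higher, against 6.18% and 5.75% of all compared genes, and 7 were not counted. Il7r gave 111 UMIs in 22 WT cells and 14 UMIs in 6 hKO cells (log2 -2.25, -3.17 to -1.44), Ltb had log2 -1.76 (-2.51 to -1.09), Cd27 34 UMIs in 28 cells and 8 UMIs in 8 cells (log2 -1.35, -2.67 to -0.21), and Cd7 log2 -1.06. Il7r was also lower in hKO resident cells (log2 -1.43) and CD8 T cells (log2 -0.82). When barcodes with T cell receptor constant region transcripts were left out, 27 WT and 19 hKO cells were left, and none of the 4 was counted as lower. Il7r gave 11 and 2 UMIs there (log2 -1.81), Ltb turned to 2.23, Cd27 to 0.064 and Cd7 came to -0.00. Without the Il7r barcodes Ltb was at log2 0.023. In WT, 116 of the 119 Ltb UMIs and 100 of the 111 Il7r UMIs were in cells with such transcripts. Of the genes on the list that were not counted, Tcf7 was at 134 CPM in both libraries, and Emb, an adhesion protein, had log2 -0.24. Of 14 mature genes 1 was higher, Itgb7, an integrin subunit (38 and 46 UMIs, log2 1.01, 0.36 to 1.67), with a ratio of 0.91 in resident cells and -0.45 in CD8 T cells. It was counted in 6 of 14 alternatives (log2 0.27 to 1.95).

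Transcription factors stayed within the rule, with none of 18 compared counted. Tbx21 was at 421 and 433 CPM (log2 0.04), Zeb2 at 1235 and 1195 CPM (log2 -0.05), Irf8 at 304 and 299 CPM (log2 -0.03) and Tcf7 at log2 0.00. Runx3, a factor of cytotoxic lymphocytes, was at 143 and 244 CPM (log2 0.77, 0.16 to 1.37). Eomes, a rule gene, gave 40 and 38 UMIs (log2 0.66, -0.02 to 1.34).

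Free RNA and mixed barcodes were reduced by keeping genes at no less than 4 times the B cell CPM and leaving mixed barcodes out, a choice made after the values were seen. This limit was applied only in the library where the gene was higher. A gene could thus pass through its higher library alone, and the counts describe the selection. Pde7b, for example, was at 14.9 CPM in hKO NK cells and 22.3 CPM in hKO B cells. Of 369 such genes 15 (4.07%) were higher and 29 (7.86%) lower in hKO. The UMIs and ratios of single genes that follow are for all cells, mixed barcodes included. Arhgap10 gave 18 UMIs in 13 WT cells and 42 UMIs in 24 hKO cells (log2 1.96, 1.13 to 2.84), was counted in each of 14 alternatives, and had log2 -0.37 in CD8 T cells. Spry2, an inhibitor of receptor tyrosine kinase signalling, gave 22 UMIs in 18 cells and 52 UMIs in 24 cells (log2 1.98). Its ratio was 1.04 in resident cells and 0.54 in CD8 T cells. Among the lower genes, Il27ra, a subunit of the interleukin 27 receptor, gave 30 UMIs in 25 WT cells and 5 UMIs in 4 hKO cells (log2 -1.85), with 0.79 in resident cells. Il27ra passed through WT alone, since it was at 24.9 CPM in hKO NK cells and 18.6 CPM in hKO B cells. Cysltr2, a leukotriene receptor, gave 33 UMIs in 28 cells and 5 UMIs in 4 cells (log2 -1.98). It was at 24.9 CPM in hKO NK cells and 5.08 CPM in hKO B cells. Pde7b (47 and 3 UMIs, log2 -3.23) had 57.4% of its WT UMIs in 1 barcode. Pde7b came to -0.34 without the Il7r barcodes, and Camk4 (51 and 8 UMIs, log2 -1.93) to 1.65 without the T cell receptor barcodes.

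The response lists gave few calls. Of 6 compared TGF-beta genes 1 was higher, Smad7, an inhibitor of the pathway (20 and 28 UMIs, log2 1.22, 0.34 to 2.13), at -0.64 in CD8 T cells and counted in 11 of 14 alternatives. Of 16 immediate early genes, Dusp1 (14 and 34 UMIs, log2 2.02) and Nr4a1 (12 and 22, log2 1.61, not counted without mixed barcodes) were higher, and Fos (104 and 28, log2 -1.15) and Jun (116 and 29, log2 -1.26) lower, with Fos at -1.69 and Jun at -1.54 in resident cells. Over 14 alternatives Fos was counted in 11 (log2 -2.35 to -0.45) and Jun in 10 (log2 -2.40 to -0.12). Of 10 heat shock genes 1 was higher, Hspa1b (16 and 66 UMIs, log2 2.78), which was also higher in B cells (3.13). Of 8 interferon genes 2 were higher, Ifi27l2a and Bst2, and neither was without mixed barcodes. Of 7 proliferation genes 4 were lower, and none without mixed barcodes. Of 14 MHC class I genes Psmb8 was lower (log2 -1.08) and not without mixed barcodes, while H2-K1 and B2m had log2 -0.12 and -0.05. None of 12 glycolysis genes was counted with all cells, and Gapdh and Hif1a were lower without mixed barcodes. Of 6 lipid genes 1 was higher, Fabp1, the liver fatty acid binding protein (35 and 45 UMIs, log2 1.10), at 2.45 in B cells. Of 6 glucocorticoid genes 1, Dusp1, was higher. Of 15 homing genes 1, Itgb7, was higher, and of 11 resident lymphocyte genes 1, Il7r, was lower, with Inpp4b at log2 -0.90 and Cxcr6 at -0.91. Of 6 compared Ly49 genes none was counted.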

How the data were processed

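Droplet 3′ RNA sequencing of pooled tumours gave 1 WT and 1 FABP5 hKO library. The deposited matrices give unnormalized UMI counts for each gene in each barcode, made with Cell Ranger 7.1.0 per the file headers; the submitters' processing notes also name R 3.0, Seurat 3 and build mm9. The files hold 14289 WT and 18657 hKO barcodes and 32285 features, and 9853 and 11451 barcodes were kept.

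Counts were summed over the cells of a gate in each library and given as CPM with exact Poisson 95% intervals, log2 ratios with exact conditional binomial intervals, and shares with Clopper-Pearson intervals. Intervals and floors cover counting error only. A gene was counted as different when it reached 50 CPM in either group, its log2 ratio was 1 or more in either direction and the interval did not include 0. Rule genes were left out, except among the 45 genes examined under the alternatives. Where a group summed to 0 the ratio is a bound against 3 counts for that group. Between populations the rule had to hold in both libraries. With 1 library per genotype no p-value was computed. The counting was run on simulated counts with changes larger than the rule asks for and no variation between cells or libraries. That run cannot show how the rule behaves under such variation.

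Named genes were the rule genes, Gzma and Fabp5, the 10 highest and 10 lowest by ratio in each comparison (between genotypes without mitochondrial, ribosomal, hemoglobin, immunoglobulin, T cell receptor segment and unnamed genes, and without genes more than 10 times higher in the other barcodes), the 10 highest over the other barcodes with at least 200 CPM, up to 6 of the highest members of each list and each counted member. The members, the 21 lists and the comparisons were chosen with earlier results of these data known. Doublets were not removed; Scrublet called 394 WT barcodes and 2 hKO barcodes (0.0175%), so it did not work in hKO, and removing its WT calls and the 1010 highest-scoring hKO barcodes was tried as an alternative. Python 3.11.15, numpy 2.4.6, scipy 1.17.1, pandas 2.3.3, scanpy 1.11.5 and matplotlib 3.10.9 were used. Some genes are not reported here.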

Additional observations from a re-analysis of the deposited data

Results flagged for a closer look

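For 18 reported comparisons the log2 ratio of NK cells over another population went opposite ways in WT and hKO, by at least a log2 unit each. They are read against 3591 genes compared with resident lymphocytes and 3614 with CD8 T cells. The difference between the libraries was not tested in any of the 18. Against resident lymphocytes, the values for Plcb1 are bounds, -3.89 in WT (0 UMIs in NK cells, 63 in resident cells) and 2.16 in hKO (16 and 0 UMIs, with 14 of the 16 in 1 barcode). The ratio was -2.76 in WT and 2.67 in hKO for Ifitm2, -1.99 and 1.38 for Ifitm3, and -1.02 and 1.06 for Elk3. Lyz2 had -1.01 and 1.67, Nrros -1.02 and 1.51, and Dusp1 -2.15 and 1.51. Mcm9 (1.17 and -1.74) and Tuba1b (1.29 and -3.58) went the other way, on 5 and 1 UMIs in hKO NK cells.

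Against CD8 T cells, the ratio was -4.14 in WT and 2.48 in hKO for Il1b, -2.31 and 5.45 for Cxcl2, -3.30 and 2.29 for Spp1, -1.28 and 1.04 for Sptan1, -1.06 and 1.91 for Magi3, -1.02 and 1.53 for Dcaf10, and -1.21 and 1.03 for Nrros. Dcaf10 rested on 9 UMIs in WT and 15 UMIs in hKO NK cells. H2-Aa (1.10 and -1.91) and H2-Eb1 (1.02 and -2.44), MHC class II genes, went the other way. Single barcodes held many of these UMIs: 27 of 29 for Il1b and 11 of 13 for Cxcl2 in hKO NK cells, and 196 of 218 for H2-Aa and 167 of 189 for H2-Eb1 in WT NK cells. For Lyz2, against resident cells, 1 barcode held 108 of 132 UMIs in WT and 1 held 95 of 198 in hKO, and for Ifitm2 and Ifitm3 1 barcode held 17 of 38 and 25 of 59 in hKO. Macrophage markers stood at 510 CPM in WT and 1195 CPM in hKO NK cells, with 10 UMIs or more in 2 and 3 cells. Without mixed barcodes they stood at 156 and 173 CPM. The other populations were mixed as well. Endothelial markers stood at 1098 CPM in WT and 310 CPM in hKO resident cells, and at 119 and 153 CPM without mixed barcodes. In CD8 T cells they stood at 1292 and 247 CPM, and at 181 and 77.1 CPM without mixed barcodes. The part of either marker set in these ratios was not tested.

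Among barcodes above the mitochondrial limit of 25%, 4 hKO barcodes and 1 WT barcode passed the NK gate. The alternative limit of 50%, with 93 WT and 63 hKO cells, gave a log2 ratio of the shares of -1.12, and 231 genes higher and 271 lower in hKO.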

How the results depend on the processing

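No paired analysis was possible because each genotype had 1 library, and for the same reason no replicate could be left out. Between genotypes, 242 genes higher and 260 lower became 148 and 116 with a floor of 100 CPM, 15 and 29 with genes over B cells and no mixed barcodes (chosen after seeing the data), and 96 lower with cells thinned to 1000 UMIs. The share of higher among counted genes, 48.2%, was 63.9% (320 and 181) with the median ratio set to 0, 60.6% (337 and 219) with mitochondrial, ribosomal, hemoglobin and hepatocyte genes out of the total, and 63.2% when thinned; these scalings moved the median log2 ratio from -0.14 to between -0.02 and 0.00. Of 45 genes examined, rule genes included, 25 were counted. That count holds Klra8, a rule gene, whose ratio is a description of the gate and not a genotype call. Of the 25, 2 (Slamf7 and Arhgap10) were counted under every alternative, and 4 reversed. With T cell receptor genes at 0, Ltb came to 2.23, Cd27 to 0.064, Atp8a2 to 0.23 and Camk4 to 1.65. Without Il7r barcodes Ltb came to 0.023. The alternative with T cell receptor genes at 0 keeps 27 WT and 19 hKO cells.

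Against resident lymphocytes, the 26 lower genes became 45 with at least 5 resident UMIs against 0 in NK cells, 12 with a floor of 100 CPM (8 higher in place of 15) and 17 without mixed barcodes. Against CD8 T cells, 99 lower genes became 50 with a floor of 100 CPM. Shares of Cd27 cells depended on depth: 25% in WT and 10.0% in hKO without thinning. Mature WT cells were 36.7% at 2000 UMIs and 40.2% without thinning, and mature hKO cells 41.7% without thinning. Apart from the scaling and thinning, the causes of these shifts were not tested.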
